A study of Mus musculus with 30 samples.

Results

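Ovaries taken at 18.5 days post coitum (dpc), just before birth, were set against ovaries of 11.5, 12.5, 14.5 and 16.5 dpc, to find transcripts whose 18.5 dpc samples lay above or below every earlier sample. The members are the 2 samples whose titles give 18.5 dpc (6 arrays), of 10 samples (30 arrays) in all. The 8 earlier samples hold 2 of each earlier age. Each sample was total RNA from pooled embryonic ovaries of BL/6-129 mice, extracted with TRIzol, with no treatment named in the labels. For 11.5 and 12.5 dpc the labels add that the gonads were sexed by PCR for Sry. Every sample was measured on 3 Affymetrix designs with different probe sets (arrays A, B and C), each fitted by itself. The labels say neither that the 2 samples of an age were separate pools nor that the 3 arrays of a number held the same RNA. The p-values thus reflect only how much these samples vary, and that variation may be technical.

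The fetal mouse ovary holds germ cells, pregranulosa cells that will enclose them, and stroma with blood vessels. Primordial germ cells divide after they reach the gonad, enter meiosis and then arrest in prophase as oocytes. Around birth the germ cell clusters break up into primordial follicles, each an oocyte inside a layer of pregranulosa cells. The oocyte transcription factors Lhx8, Nobox and Figla are known to be needed for this stage and to switch on oocyte genes, among them those of the egg coat. In RNA of a whole ovary, fewer cells of a type and less RNA per cell cannot be told apart.

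Values are the deposited signals, scaled by the authors to a mean of 125 per array. Probe sets with a signal of 50 or more on at least 2 arrays were tested. A change is given in log2(signal + 16), as 18.5 dpc minus the mean of the 4 earlier age means, and a fold on that scale understates the change of dim probe sets. A probe set was called when limma's Benjamini-Hochberg adjusted p was under 0.05 and both 18.5 dpc samples lay above, or below, all 8 earlier ones.

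Of 24825 tested probe sets, 2033 (8.19%) had both 18.5 dpc samples above the 8 earlier ones and 1791 (7.21%) had both below. With the test added, 894 (3.6%) were called higher and 950 (3.83%) lower. Taking 1 probe set for each of 12589 named genes, 548 genes (4.35%) were higher at 18.5 dpc and 585 (4.65%) lower, and these are the shares against which each gene list is read below. Among genes called higher the median fold was 1.91, and 40 rose 4-fold or more. Among genes called lower the median fold was 1.81, and 16 fell 4-fold or more. Without 18.5 dpc sample 1 the probe sets called numbered 165 higher and 240 lower, and without sample 2 they numbered 199 and 345. Where calls kept without one of these samples are given below, the probe sets tested were held the same. A stricter test, which asked 18.5 dpc to differ from each earlier age on its own, called 33 probe sets higher and 2 lower in limma, with 440 and 521 at an unadjusted p under 0.05.

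**Figure D1:**
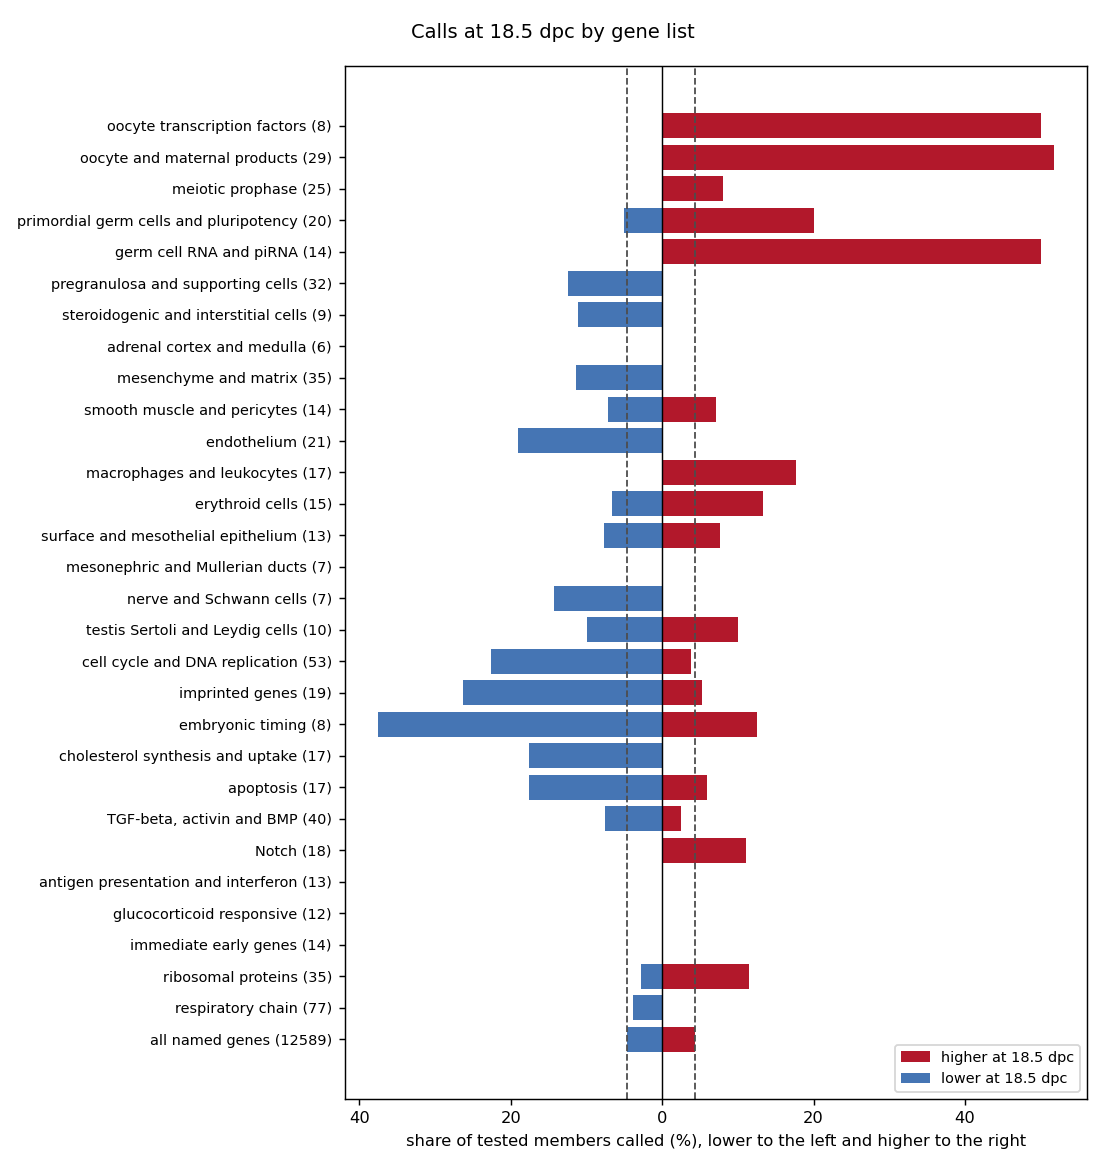
Share of the tested members of each gene list that was called at 18.5 dpc (x axis, percent), higher to the right and lower to the left, with the number tested in brackets. Dashed lines mark the shares over all named genes, 4.35% higher and 4.65% lower. The oocyte transcription factors, the oocyte and maternal products and the germ cell RNA and piRNA genes have the longest bars to the right.

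Oocyte genes were among the largest rises. Of 8 tested oocyte transcription factors, 4 rose and none fell, with a median change of 0.85 over the list against 0.01 over all named genes. Lhx8 and Nobox reached a signal of 50 at 18.5 dpc only, so that they could be tested only by being high there. Among the 6 other tested members 2 rose, with a median change of 0.45. Lhx8, a LIM homeodomain factor, had signals of 588.7 and 679.1 at 18.5 dpc, against 5.3 to 41.8 (median 15.85) in the 8 earlier samples. Its change of 4.35 ± 0.22 (SE, limma adjusted p = 3.01e-07) was a 20.5-fold rise. It was the largest of any named gene with 16 added to the signal, but with 4 added it was 5.09, against 5.20 for Ccno, described below. Both 18.5 dpc samples stood far above the brightest earlier sample, which was from 16.5 dpc.

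Nobox, an oocyte homeobox factor, had signals of 601.1 and 597.0 at 18.5 dpc, against 26.7 to 38.9 (median 34.35) in the earlier samples, a change of 3.63 ± 0.33 (limma adjusted p = 4.66e-05). The earlier samples were all dim and showed no step between ages. A second Nobox probe set, on array A, read 129.7 and 164.1 at 18.5 dpc and at most 11.2 before, and was called as well. Like the first, it could be tested only by being high at 18.5 dpc. Figla, a basic helix-loop-helix factor, differed from these in that it was already brighter by 14.5 dpc. It had signals of 245.5 and 305.0 at 18.5 dpc, against 7.7 to 126.9 (median 56.9) in the earlier samples, a change of 2.14 ± 0.26 (limma adjusted p = 0.000433). Against 16.5 dpc alone its change was 1.23 (limma adjusted p = 0.13). Foxo3, a forkhead factor that holds primordial oocytes dormant, had signals of 477.1 and 511.6 at 18.5 dpc, against 171.8 to 269.8 (median 220.15) before. Obox5, Taf4b, Nr6a1 and Sohlh2, the other tested factors, were not called, with changes from -0.24 to 0.57. All 4 rises kept their call without either 18.5 dpc sample.

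**Figure D2:**
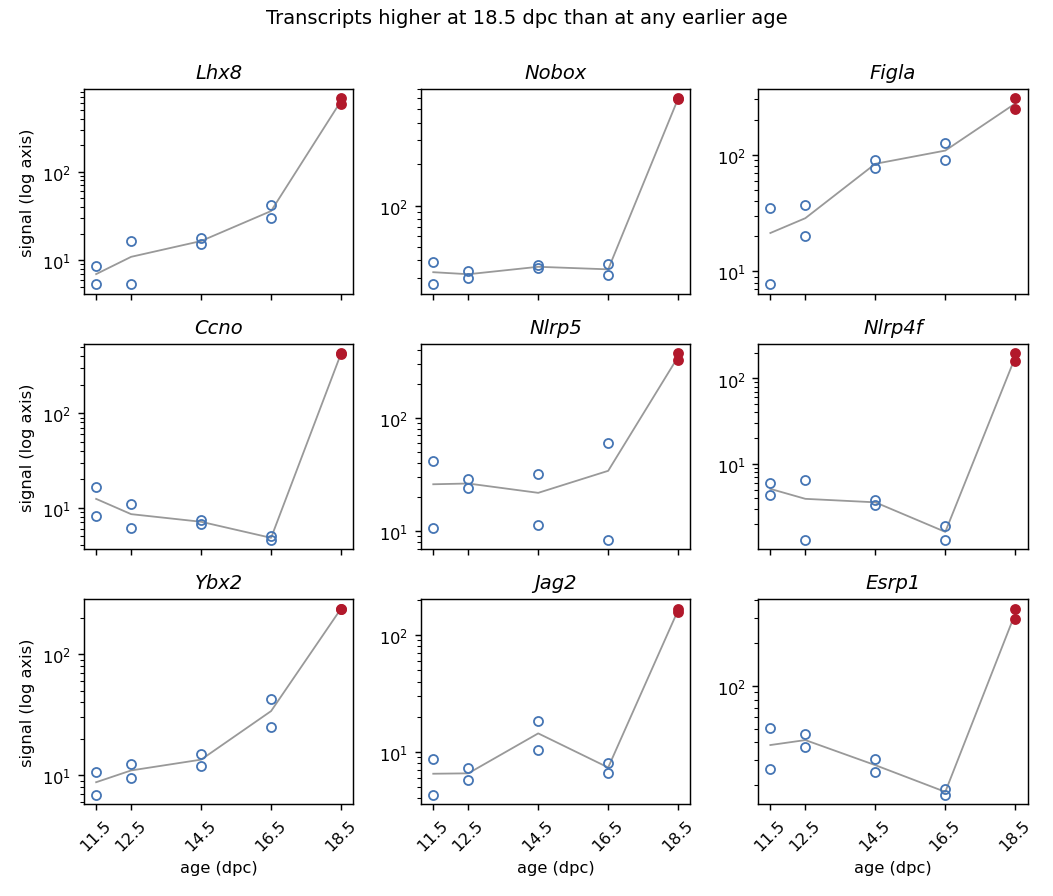
Signals of 9 transcripts in the 10 samples by age (x axis, dpc), on a log signal axis that differs between panels. Open blue circles are the 8 earlier samples, filled red circles the 2 of 18.5 dpc, and the grey line joins the mean of each age. Nobox, Ccno, Nlrp4f and Jag2 stay dim through 16.5 dpc, while Figla climbs from 12.5 dpc on.

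The promoters of 5 of the oocyte genes that rose are shown, 3 of them because they encode the factors named above. Ooep and Padi6 were picked by no such rule. Each promoter runs 5′ to 3′ from 250 bases before to 50 bases after the start of the gene (RefSeq, GRCm38.p6). Capitals mark the letters CAGGTG, a form of the E-box that basic helix-loop-helix factors such as Figla bind, and TAATTG, a homeobox core, each on either strand.
Lhx8 (chr3:154330511-154330810, minus strand): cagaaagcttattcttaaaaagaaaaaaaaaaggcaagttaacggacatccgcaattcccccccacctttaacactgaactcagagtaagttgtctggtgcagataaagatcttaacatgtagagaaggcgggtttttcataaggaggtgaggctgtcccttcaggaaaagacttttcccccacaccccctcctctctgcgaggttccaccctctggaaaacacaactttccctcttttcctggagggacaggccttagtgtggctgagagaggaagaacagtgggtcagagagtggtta
Nobox (chr6:43309505-43309804, minus strand): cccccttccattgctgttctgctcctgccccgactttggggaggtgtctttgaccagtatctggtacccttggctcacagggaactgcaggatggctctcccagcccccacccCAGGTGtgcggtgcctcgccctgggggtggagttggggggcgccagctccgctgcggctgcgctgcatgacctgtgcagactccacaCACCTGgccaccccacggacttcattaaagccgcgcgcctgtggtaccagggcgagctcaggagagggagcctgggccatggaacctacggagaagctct
Figla (chr6:86016941-86017240, plus strand): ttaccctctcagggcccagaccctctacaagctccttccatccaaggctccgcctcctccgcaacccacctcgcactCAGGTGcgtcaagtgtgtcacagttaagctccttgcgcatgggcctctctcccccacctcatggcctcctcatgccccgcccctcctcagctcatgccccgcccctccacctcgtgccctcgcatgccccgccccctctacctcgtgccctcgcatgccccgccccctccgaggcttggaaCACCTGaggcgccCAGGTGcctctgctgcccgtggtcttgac
Ooep (chr9:78378539-78378838, minus strand): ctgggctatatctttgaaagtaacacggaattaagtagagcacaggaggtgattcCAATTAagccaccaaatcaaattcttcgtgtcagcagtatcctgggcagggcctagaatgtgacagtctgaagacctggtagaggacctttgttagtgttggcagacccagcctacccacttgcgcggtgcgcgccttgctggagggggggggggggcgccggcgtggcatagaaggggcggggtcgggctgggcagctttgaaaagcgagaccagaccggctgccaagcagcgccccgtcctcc
Padi6 (chr4:140742594-140742893, minus strand): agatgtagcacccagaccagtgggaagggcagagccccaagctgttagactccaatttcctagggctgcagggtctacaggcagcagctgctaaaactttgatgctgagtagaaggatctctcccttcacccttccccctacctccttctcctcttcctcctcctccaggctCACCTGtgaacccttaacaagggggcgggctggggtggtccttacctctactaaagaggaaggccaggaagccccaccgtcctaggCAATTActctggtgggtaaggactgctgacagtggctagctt

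The Nobox window held CAGGTG at 2 places and the Figla window at 3, while the Lhx8 window held neither motif. Over the 19 genes of both oocyte lists that rose, 17 had a promoter in the table. CAGGTG was in 7 of these 17 (41.2%), in Nobox, Figla, Padi6, Cpeb1, Trim61, Ybx2 and Tcl1, and in 20% of the first listed promoters of all 27025 genes. TAATTG was in 3 of 17 (17.6%), in Padi6, Trim61 and Ooep, and in 8.15% of all. Padi6 and Ooep are 2 of the 5 promoters shown, so that those 5 overstate how frequent TAATTG was. Among the genes with a motif, Padi6, Ooep and Cpeb1 lost their call without either 18.5 dpc sample, and Trim61 without sample 1. A match is only these letters in this window, and no binding was measured.

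Among 29 tested oocyte and maternal products, 15 rose and none fell, with a median change of 0.97. Of the list, 5 genes reached a signal of 50 at 18.5 dpc only, Ccno, Nlrp4f, Ybx2, Trim61 and Cpeb1, and all 5 were among the 15. Among the 24 others 10 rose, with a median change of 0.71. Ccno, which encodes cyclin O, had signals of 429.2 and 427.8 at 18.5 dpc, against 4.6 to 16.6 (median 7.1) in the earlier samples, an 18.6-fold rise (limma adjusted p = 1.31e-05). The 2 samples of 16.5 dpc, at 4.6 and 5.0, were the dimmest of all. Nlrp5, also called Mater, a maternal protein of the subcortical complex of the egg, had signals of 371.4 and 323.0 at 18.5 dpc, against 8.4 to 59.7 (median 26.3) before, a 9.05-fold rise (limma adjusted p = 0.000599). Its relatives Nlrp4f and Nlrp4g were called too, from probe sets of a type that can match several genes of a family. Nlrp4f had signals of 158.9 and 196.6 at 18.5 dpc and at most 6.5 before, and Nlrp4g had 263.9 and 213.4 at 18.5 dpc and at most 25.3 before.

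Ybx2, which encodes a germ cell protein that binds and stores messenger RNA, had signals of 238.9 and 237.9 at 18.5 dpc, against 6.9 to 43.0 (median 12.2) in the earlier samples. Zp2, an egg coat protein and a known target of Figla, rose on both of its probe sets. The dimmer of them had signals of 77.0 and 81.9 at 18.5 dpc and at most 12.2 before, so that it could be tested only by being high there. The brighter had 105.8 and 95, against 30.5 to 62.2. The call of the brighter one was lost without either 18.5 dpc sample. Zp3, another egg coat gene, was too dim to be tested, with 34.1 and 33.9 at 18.5 dpc, against 6.8 to 23.7. Gdf9, a growth factor of growing oocytes, was not called, with 141.4 and 164.3 at 18.5 dpc, against 84.5 to 151.9 (median 100.5), so that the groups overlapped. Bmp15, Zar1, Mos and Oosp1, products of later oocytes, were not called either, with changes from -0.15 to 0.35. Of the 15, 9 kept their call without 18.5 dpc sample 1 and 10 without sample 2.

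Genes of germ cell RNA and the piRNA pathway, which silences transposons, had 7 of 14 tested members higher and none lower (median 1.03). Ybx2 and Cpeb1, both called, reached a signal of 50 at 18.5 dpc only, and 5 of the 12 others rose (median 0.99). Gtsf1, a piRNA pathway protein, had signals of 2468.3 and 2940.7 at 18.5 dpc, against 57.8 to 740.9 (median 387.1) in the earlier samples, a 9.69-fold rise (limma adjusted p = 5.73e-07). Mov10l1, an RNA helicase of that pathway, had 3566.7 and 3608.0 at 18.5 dpc, against 588.9 to 2274.8 (median 1124.6). Both were already bright at 16.5 dpc, with 733.4 and 619.0 for Gtsf1 and 2006.9 and 2274.8 for Mov10l1. A second, dimmer Mov10l1 probe set overlapped and was not called, with 115.1 and 126.5 at 18.5 dpc, against 49 to 139.2 before. Piwil2, a Piwi protein, had 287.9 and 186.6 at 18.5 dpc, against 10.6 to 113.0 (median 39.6), and lost its call without 18.5 dpc sample 1. Ddx4, the germ cell helicase, had 327.1 and 355.4 at 18.5 dpc, against 41.7 to 294.3 (median 226.4), and lost its call without either 18.5 dpc sample. Its second probe set went the other way, at 143.4 and 126.3 in 18.5 dpc ovaries, against 149.7 to 334.0 before, so that the direction of Ddx4 depends on the probe set. Of the 7, 4 kept their call without 18.5 dpc sample 1 and 5 without sample 2.

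Dppa3, Kit and Tcl1, known from primordial germ cells and also held by oocytes, were low at 16.5 dpc and high again at 18.5 dpc. Dppa3 had signals of 1238.4 and 1086.2 at 18.5 dpc, against 25.3 to 730.7 (median 412.8) in the earlier samples, and the lowest values were the 33.2 and 25.3 of 16.5 dpc. Its change was 2.15 ± 0.19 against the 4 earlier ages (limma adjusted p = 3.71e-05) and 4.71 against 16.5 dpc alone (limma adjusted p = 1.4e-06). Kit, the receptor that binds Kitl from pregranulosa cells, had 289.7 and 320.5 at 18.5 dpc, against 37.5 and 32.0 at 16.5 dpc and at most 155.6 at any earlier age. Tcl1 had 143.6 and 132.2 at 18.5 dpc, against 26.8 and 24.7 at 16.5 dpc and at most 117.3. The 16.5 dpc samples were the 2 lowest earlier samples in 17 of 548 genes called higher (3.1%) and the 2 highest in 197 (35.9%). These shares were not computed over all tested genes, so that 3.1% cannot be set against a base. Prc1 and Cks2, cell division genes, were also among the 17.

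Most other primordial germ cell and pluripotency genes were not called. Of 20 tested, 4 rose (the 3 above and Trim71), 1 fell, and the median change was -0.60. Tfap2c, a factor of early germ cells, fell to 13.8 and 11.7 at 18.5 dpc, against 15 to 180.9 (median 110.75), and its 16.5 dpc samples were almost as low at 15.4 and 15. Its call was lost without either 18.5 dpc sample, as was that of Trim71. Pou5f1, which encodes Oct4, had 37.3 and 35.6 at 18.5 dpc, between the 30.7 and 21.7 of 16.5 dpc and the 521.1 of its brightest earlier sample, so that the groups overlapped and it was not called.

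Meiosis genes as a list did not step up. Of 25 tested meiotic prophase genes, 2 rose and none fell, and against 16.5 dpc alone their median change was -0.38. Sycp1, a protein of the synaptonemal complex that holds paired chromosomes together, had 924.9 and 881.9 at 18.5 dpc, against 1.3 to 747.5 (median 126.05). Its change was 3.17 against the 4 earlier ages but 0.41 against 16.5 dpc alone (limma adjusted p = 0.49), since the 16.5 dpc samples were already at 609.9 and 747.5. Ccnb1ip1, a factor of crossover formation, was the other rise, with 245.9 and 267.6 at 18.5 dpc, against 7.8 to 218.0. Stra8, which starts meiosis, had 23 and 9.7 at 18.5 dpc, against 2.2 to 699.2 (median 35.5), and Spo11, the enzyme of meiotic breaks, had 906.8 and 1441.7, against 292.7 to 1916.2. Both overlapped the earlier samples and were not called.

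**Figure D3:**
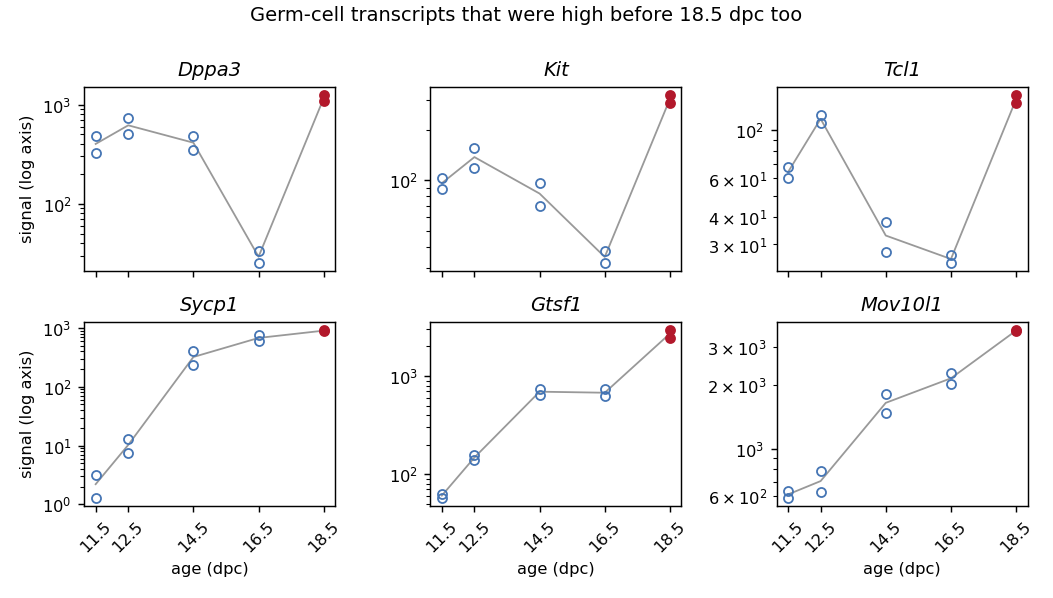
Signals of 6 germ cell transcripts in the 10 samples by age (x axis, dpc), on a log signal axis that differs between panels. Open blue circles are the 8 earlier samples, filled red circles the 2 of 18.5 dpc, and the grey line joins the mean of each age. Dppa3, Kit and Tcl1 dip at 16.5 dpc and return, while Sycp1, Gtsf1 and Mov10l1 had risen before.

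Signalling genes gave few calls. In the Notch list, 2 of 18 tested genes rose, and no receptor was called. Jag2, 1 of the 2, reached a signal of 50 at 18.5 dpc only. Jag2, a Notch ligand, had 158.7 and 168.8 at 18.5 dpc, against 4.3 to 18.4 (median 7.7), a 7.36-fold rise (limma adjusted p = 5.4e-05). Hes1, a Notch target, had 400.3 and 451.3 at 18.5 dpc, against 145.2 to 218.4 (median 166.8). In the list of TGF-beta, activin and BMP genes, 1 of 40 rose and 3 fell. The rise was Id1, a target of BMP signals, with 2002.4 and 2021.6 at 18.5 dpc, against 263.1 to 785.2 (median 400.05). The falls were the receptor Acvr1, the signal transducer Smad5 and the inhibitory Smad6, with changes from -0.83 to -0.77. None of these 3 kept its call without 18.5 dpc sample 1, and Acvr1 lost it without sample 2 as well. Further rises outside the lists were Cd55, a cell surface regulator of complement, and Esrp1, an epithelial splicing factor. Cd55 had 344.4 and 389.2 at 18.5 dpc, against 13.8 to 75.3 (median 32.5), and its second probe set was called as well. That second probe set reached a signal of 50 at 18.5 dpc only. Esrp1 had 297.0 and 349.8 at 18.5 dpc, against 17.1 to 50.4 (median 28.3), and its 16.5 dpc samples were the lowest.

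Lhx8, Ccno, Nobox, Nlrp4f, Gtsf1, Nlrp5, Nlrp4g, Ybx2, Cd55, Esrp1, Jag2, Id1 and Hes1 all passed the stricter test against each earlier age, as did Alb and Mbl2, liver-made plasma proteins described below. That test called 24 named genes higher, 3 of them by 2 probe sets each, and 6 higher probe sets had no symbol or several. The largest of these, without a symbol and on array A, had 7925.6 and 6885.3 at 18.5 dpc, against 89.6 to 1989.8 before, a 22.7-fold rise. The 2 genes it called lower, named here after their values were seen, were Tut4 and Arhgap29. Tut4, an enzyme that adds uridines to RNA ends, fell to 427.2 and 448.0 at 18.5 dpc, against 1036.9 to 1812.4 in the earlier samples. Arhgap29 fell to 665.1 and 758.5 at 18.5 dpc, against 1495.0 to 2026.1.

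Of 32 tested pregranulosa and supporting cell genes, none rose and 4 fell, with a median change of 0.10. Foxl2, the main factor of pregranulosa cells, had 667.4 and 793.3 at 18.5 dpc, against 89.5 to 858.4 (median 285.3), a change of 1.44 (limma adjusted p = 0.00257). It overlapped the 792.5 and 858.4 of 16.5 dpc, so that it was not called, and its change against that age was -0.18. Kitl, the ligand of Kit, had 1380.6 and 1550.4 at 18.5 dpc, against 779.3 to 1733.2, and Fst and Wnt4 overlapped as well. The 4 that fell were Gata4, Maf, Lhx9 and Cbx2, which act in the early gonad. Lhx9, a LIM homeodomain factor, fell to 182.2 and 142.5 at 18.5 dpc, against 211.0 to 732.1 (median 333.45), and its second probe set fell too. The further probe sets of Maf and Cbx2 overlapped the earlier samples and were not called, with changes from -0.56 to -0.13. Of the 4, 2 kept their call without 18.5 dpc sample 1 and 1 without sample 2, and the fall of Gata4 did not hold on its second probe set, whose change was 0.13.

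Falls were most frequent in lists of cell division and embryonic growth. In the cell cycle and DNA replication list, 12 of 53 tested genes fell and 2 rose, with a median change of -0.43. Top2a, the topoisomerase of dividing cells, fell to 134.8 and 134.2 at 18.5 dpc, against 248.2 to 545.8 (median 456.85), a change of -1.48 ± 0.13 (limma adjusted p = 5.4e-05). The replication genes Mcm7 and Rrm2 fell to 238.4 and 240.2, and to 132.4 and 137.0, against at least 309.3 and 150.9 in every earlier sample. Against 16.5 dpc alone the median change of the list was -0.09, and that of Top2a was -0.87 (limma adjusted p = 0.044). Of the 12 falls, 6 kept their call without 18.5 dpc sample 1 and 9 without sample 2.

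In the embryonic timing list 3 of 8 genes fell and 1 rose. Hmga2, a chromatin protein of embryonic growth, fell to 103.7 and 78.9 at 18.5 dpc, against 108.2 to 1622.6 (median 883.45), and its 16.5 dpc samples, at 108.2 and 108.9, were barely higher. Sox11, a developmental transcription factor, fell on all 4 of its probe sets, and the brightest had 549.9 and 579.0 at 18.5 dpc, against 881.0 to 4214.5 (median 1815.2). Of 19 imprinted genes 5 fell and 1 rose. The rise was Meg3, a maternally expressed RNA, with 504.4 and 496.1 at 18.5 dpc, against 214.4 to 466.2 (median 274.75). Another Meg3 probe set was called higher too, but the rest were not called, with changes from -0.73 to 0.36. Among the falls was Igf2, the fetal growth factor, with 3564.1 and 3329.4 at 18.5 dpc, against 3886.7 to 5257.1. Mest, another of them, fell to 520.4 and 508.4, against 749.6 to 1348.1. The Igf2 and Meg3 calls were lost without either 18.5 dpc sample, and of the 5 falls 1 kept its call without sample 1 and 2 without sample 2.

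The largest fall was Hba-x, the embryonic alpha-like globin of primitive red cells, which fell to 62.3 and 51.9 at 18.5 dpc, against 86.5 to 4952.4 (median 2457.8), a 16.6-fold fall (limma adjusted p = 8.54e-08). Its 16.5 dpc samples, at 141.9 and 86.5, were already close. Hbb-y, the embryonic beta-like globin, had 617.8 and 600.0 at 18.5 dpc, against 486.9 and 435.0 at 16.5 dpc and up to 9950.2 before, so that it was not called. Hba-a1, an adult globin, had 15255.0 and 15699.0 at 18.5 dpc, against 3669.2 to 11660.0 (median 7205.4), and rose. Rhox9, a homeobox gene of the fetal gonad, fell to 191.1 and 236.7, against 251.8 to 5632.7 (median 2674.2), an 8.66-fold fall, and its relative Rhox6 fell to 10.5 and 6.1, against 11.1 to 271.4.

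**Figure D4:**
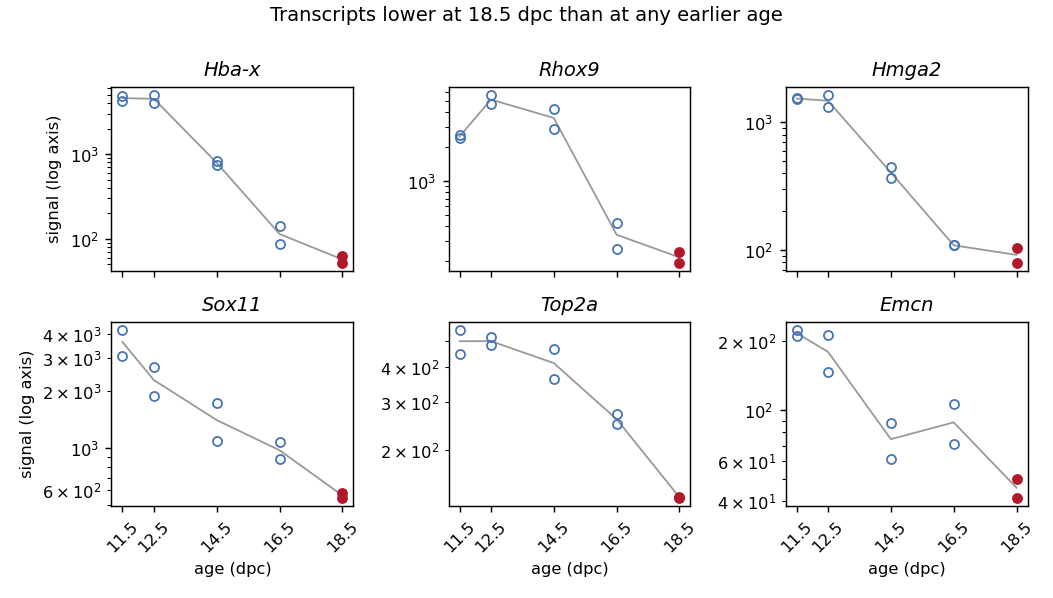
Signals of 6 transcripts in the 10 samples by age (x axis, dpc), on a log signal axis that differs between panels. Open blue circles are the 8 earlier samples, filled red circles the 2 of 18.5 dpc, and the grey line joins the mean of each age. Hba-x and Hmga2 reach low levels by 16.5 dpc, with the 18.5 dpc samples a little lower.

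Vessel and stroma genes that changed mostly fell. In the endothelium list 4 of 21 tested genes fell and none rose, with a median change of -0.29. Emcn, a vessel surface protein, fell to 50.2 and 41.5 at 18.5 dpc, against 61.2 to 224.2 (median 126.25), while Pecam1 and Kdr, other vessel markers, overlapped the earlier samples. In the mesenchyme and matrix list 4 of 35 fell, Col5a1, Nr2f2, Tcf21 and Serpinh1, and Col1a1, a main collagen, had 720.6 and 834.5 at 18.5 dpc within an earlier range of 158.4 to 1775.0. Of the 4 endothelial falls only that of Emcn kept its call without either 18.5 dpc sample, and none of the 4 mesenchyme falls did. Col5a1 did not hold on its second probe set, whose change was 0.02. In the surface and mesothelial epithelium list 1 of 13 tested genes rose and 1 fell. The fall was Aldh1a2, a retinoic acid synthesis enzyme, to 227.5 and 194.7 at 18.5 dpc, against 247.7 to 454.6 (median 320.2), and it was lost without either 18.5 dpc sample and not seen on a second probe set. The rise was Krt19, a keratin, which had 729.1 and 674.8 at 18.5 dpc, against 48.4 to 624.1 (median 160.2), but its change against 16.5 dpc alone was 0.40 (limma adjusted p = 0.41).

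Several transcripts of liver-made plasma proteins were higher at 18.5 dpc too. This list was drawn up after some of its values were seen. Of 17 tested genes 9 rose and none fell, with a median change of 1.20. Mbl2, Fgg and Fga, all called, reached a signal of 50 at 18.5 dpc only, and 6 of the 14 others rose (median 1.05). Alb, which encodes albumin, had 723.6 and 706.5 at 18.5 dpc, against 8.8 to 195.2 (median 84.35), and Apoa1, an apolipoprotein, had 330.6 and 327.0, against 5.3 to 131.4. The summed signal of the list was 3017.8 and 3039.2 at 18.5 dpc, against 752.8 to 1697.5 (median 975.1). The 8 genes not called had changes from -0.26 (Fetub) to 1.47 (Rbp4), among them 0.51 and -0.06 for the liver enzymes Cps1 and Cyp2e1. Among 17 tested leukocyte genes, 3 rose, S100a8, S100a9 and Camp, all products of neutrophils, with 259.7 and 234.1 for S100a8 at 18.5 dpc, against 46.1 to 125.0. The summed signal of that list was 2497.2 and 2219.0 at 18.5 dpc, against 1651.4 to 2270.9. The macrophage markers Csf1r, C1qa and C1qb overlapped the earlier samples. Without 18.5 dpc sample 1 none of the 3 neutrophil rises was called, and without sample 2 only S100a8 was. The part that liver, blood or other tissue RNA played in the oocyte rises was not tested.

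Markers set the labels beside the data. Of the oocyte markers, Nobox, Lhx8 and Figla were the rises described above, so that they are no separate check of the labels. Gdf9 overlapped the earlier samples, and Zp3 was too dim to be tested. Foxl2, a pregranulosa marker, was bright at 18.5 dpc but overlapped the earlier samples. Amh, a product of fetal Sertoli cells of the testis, was dim in every sample, at 13.3 and 21.7 at 18.5 dpc, against 11.0 to 20.5. The brightest probe sets of the other testis markers, Sox9 and Dhh, were bright in every sample, at 675.0 and 505.3 for Sox9 at 18.5 dpc, against 477.0 to 892.2, and at 330.1 and 476.3 for Dhh, against 188.3 to 535.8. Both overlapped the earlier samples. These Sox9 and Dhh probe sets are of types that can match several transcripts, so that their brightness may not be that of Sox9 or Dhh. Pax8 and Cdh16, markers of the ducts beside the ovary, were under 26 in every sample, and Pax2, another duct marker, was at most 37.6. No gene of the adrenal list (6 tested) or duct list (7 tested) was called. The adrenal markers Cyp21a1, Cyp11b1 and Mc2r overlapped the earlier samples, Mc2r with 13.1 and 96.3 at 18.5 dpc, against 16.5 to 218.8. The 3′ to 5′ signal ratio of the Gapdh control probe sets, a sign of RNA integrity, was 1.08 and 1.05 at 18.5 dpc, against 0.829 to 1.09 in the earlier samples, and that of beta-actin was 1.74 and 1.82, against 1.18 to 2.19. The median change over all tested probe sets was 0.01.

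The remaining lists held few calls. Of 17 cholesterol genes 3 fell, led by Idi1, an enzyme of sterol synthesis, with 71.2 and 67.5 at 18.5 dpc, against 73.5 to 267 (median 226.6), and its 16.5 dpc samples were nearly as low at 73.5 and 87.3. A second Idi1 probe set overlapped, with 68.1 and 76.8 at 18.5 dpc, against 23.4 to 158 before. The calls of the others, Stard4 and Hmgcs1, were lost without either 18.5 dpc sample. Of 17 apoptosis genes 1 rose and 3 fell. The rise was Trp63, which encodes p63, the protein that watches over DNA damage in oocytes, with 84.2 and 69.6 at 18.5 dpc, against 27.6 to 50.8 (median 40.05). Its call was lost without either 18.5 dpc sample, and its second probe set changed by -0.14. Bbc3, which encodes the death protein Puma, fell to 10.3 and 15.5 at 18.5 dpc, against 47.4 to 197.3 (median 86.65), and also lost its call without either 18.5 dpc sample. Of 35 ribosomal protein genes 4 rose and 1 fell, but Rpl41 and Rps28, among the rises, turned to changes of -0.05 and -0.06 under quantile normalization. None of these rises kept its call without 18.5 dpc sample 1. Of 77 respiratory chain genes 3 fell and none rose, and none of the 3 was called without either 18.5 dpc sample.

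The changes were not all late ones. The share of a change that fell between 16.5 and 18.5 dpc was taken from the lowest earlier age mean for rises and the highest for falls. It came to 50% or more in 268 of 548 genes called higher (48.9%) and in 275 of 585 called lower (47%). Ccno and Nobox made nearly all of their rise in that interval, and Sycp1, Krt19 and Hba-x little of their change. Against 16.5 dpc alone, 64 of the 548 genes called higher and 17 of the 585 called lower also had a limma adjusted p under 0.05 in the same direction. Over all 24825 tested probe sets, 155 had a limma adjusted p under 0.05 against 16.5 dpc, in either direction. The comparisons share the 18.5 dpc samples, so that some overlap between them was built in.

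**Figure D5:**
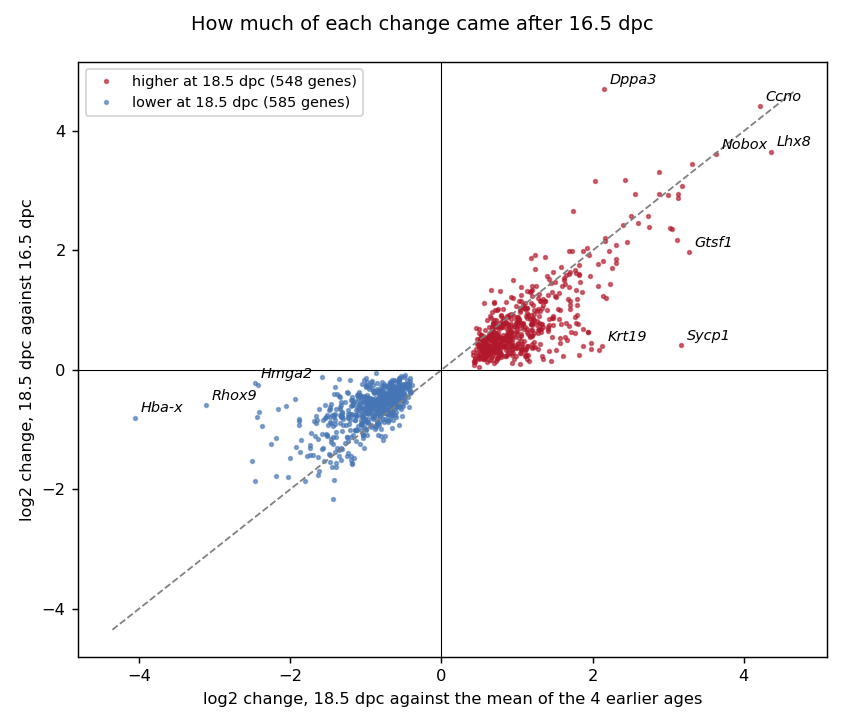
Change of each called gene at 18.5 dpc against the mean of the 4 earlier ages (x axis, log2) and against 16.5 dpc alone (y axis, log2), for 548 genes called higher in red and 585 called lower in blue. The dashed line marks equal changes. Ccno and Nobox lie near it, Dppa3 above it, and Sycp1 and Hba-x close to the horizontal zero line.

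Other probe sets of the same genes give a check on measures that the choice of 1 probe set per gene did not use. For the genes called higher, 90 of 301 further probe sets (29.9%) also had both 18.5 dpc samples above all earlier ones, against 7.2% of further probe sets over all genes, and 6 had them below. Some of these, among them further probe sets of Nobox, Cd55 and Zp2, reached the signal minimum at 18.5 dpc only. Such probe sets had to lie above all earlier samples to be tested, and they were left in both shares. The share without them was not computed, so that for rises the check is partly fixed in advance. For the genes called lower, 95 of 516 (18.4%) had both 18.5 dpc samples below, against 7.02%, and 18 had them above. Ginm1 shows how far probe sets of a gene can part: it fell to 68.2 and 17.7, against 153.3 to 375.6, on array C, and rose to 257.5 and 279.3, against 39.0 to 209.1, on array A. Near the limit of overlap, the called genes closest to it were Tspo (820.1 and 868.4 at 18.5 dpc, with a brightest earlier sample of 819.3), Gtf3c6 and Selenoh. Just outside it lay Tgoln1 (382.1 and 317.4 at 18.5 dpc, with a brightest earlier sample of 317.8), Gprasp2 and Tes.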

How the data were processed

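The authors deposited a signal intensity for every probe set of each array, scaled to a mean of 125, per the labels. The mean, trimmed by 2% at each end, was 125.02 to 125.08 on the 30 arrays. The signal software was not named in the labels, and detection calls were not analysed here. Of 36899 probe sets, 198 were controls. In the platform annotation 29131 had 1 symbol and were named, 724 had several and 6846 had none. Signals were analysed as log2(signal + 16) in 1 linear model of 5 ages per array type (limma 3.58.1, R 4.3.3, intensity trend, 5 residual degrees of freedom), with p-values adjusted over the 24825 tested probe sets of the 3 types (7494 on A, 9103 on B, 8228 on C). The number of arrays limits the precision. Members, gene lists and the named genes were chosen with earlier results of these data known. Named genes were the 15 largest rises and falls, the 10 brightest onsets and losses, up to 6 called genes per list, a fixed set and those nearest the overlap limit, each by its brightest probe set. Other genes named as list members follow no such rule. Simulated data kept the means of the earlier ages, set 18.5 dpc to their average and had independent normal noise. There the calls recovered 43 of 100 probe sets raised by a log2 change of 1. They recovered 87 of 100 raised by 2, with 2 false calls. With 18.5 dpc placed amid the earlier ages, the no-overlap condition can block false calls, so that these 2 give no error rate for the real calls. Alternatives were another pseudocount, filter, normalization, model and adjustment, samples left out and other probe sets.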

Additional observations from a re-analysis of the deposited data

How the results depend on the processing

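The 894 probe sets called higher and 950 lower stayed within 1.5 times these counts under both pseudocounts, both filters, quantile normalization, no intensity trend, adjustment within each array type, no overlap condition and leaving out any earlier sample. They were 153 and 132 with the 8 earlier samples as 1 group, where the spread holds the differences between ages, and 33 and 2 with the stricter test. With each sample left out in turn they ranged from 165 to 1039 higher and from 240 to 1066 lower. With the probe sets of the full filter kept, an alternative chosen after seeing the data, they were 199 and 245 without 18.5 dpc sample 1 and 241 and 366 without sample 2. Without probe sets that reached 50 at 18.5 dpc only, also added later, 813 were higher. Sample numbers share only a number: deviations of same-numbered samples correlated between -0.161 and 0.219, and the replicate block gave 829 and 872. Of 115 called named genes, 46 kept their call with each sample left out, and 10 more did in those settings that tested them. Over the settings other than the choice of probe set, 5 (Nlrp5, Cd55, Esrp1, Id1 and Hes1) kept it in all 22, and 8 (Lhx8, Ccno, Nobox, Nlrp4f, Nlrp4g, Ybx2, Jag2 and Tsga8) kept it wherever tested, being under the signal minimum once an 18.5 dpc sample was left out unless the full filter was kept. Direction turned under quantile normalization for Rpl41 (-0.051) and Rps28 (-0.062), and for Star without 18.5 dpc sample 2 (-0.142, against 0.322 without sample 1). It turned on the second brightest probe set for Dazl (-0.164), Ddx4 (-0.556), Trp63 (-0.136), Star (-0.247), Stag3 (0.494), Gata4 (0.13), Aldh1a2 (0.088), Mdm2 (0.303), Casp2 (0.1), Col5a1 (0.024), Pou5f1 (0.25), Shisa6 (0.077) and Ginm1 (1.247). On plain probe sets it turned for Stag3, Aldh1a2, Col5a1, Shisa6 and Ginm1, with the same values. These are log2 changes, and the cause was not tested. Dim signals close to background limit the folds of genes with low earlier values.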
